A study of Mus musculus with 12 samples.

Results

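The Src-family tyrosine kinases Lyn, Fyn, Fgr, Src, Yes1 and Lck and their inhibitory kinase Csk were followed in primary mouse microglia carrying the Trem2 R47H knock-in or the wild-type (WT) allele, with and without interleukin-4 (IL-4). The 7 genes were chosen by name, as members of this kinase family, and each was found under 1 identifier among the 48623 genes of the table. Mean expression would have decided between identifiers of the same symbol, but that was needed for 0 of the 7 genes. The choice was made with earlier results of these data known, so the tests below, all adjusted over every gene tested, describe these genes and are not independent evidence for picking them.

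By the codes in their titles, the 12 libraries were taken to come from 6 cultures. The cultures T13, T33 and T43 were WT C57BL/6J and the cultures T15, T22 and T32 carried the Trem2 R47H knock-in (KI), also on C57BL/6J. Each culture gave 1 untreated library and 1 library treated with IL-4 at 20 ng/ml for 48 h, so each of the 4 groups held 3 libraries. Microglia were grown out of mixed glia from the cortex and hippocampus of newborn mice, and the astrocyte layer was then removed with mild trypsin. By the study's account the KI mice were homozygous and the WT mice were their littermates, and pups of these litters were cultured separately and genotyped afterwards. The labels do not say which cultures share a litter. The R47H allele in this mouse also lowers the amount of Trem2 transcript through altered splicing.

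Src-family kinases sit at the inner face of the plasma membrane, where they phosphorylate the ITAM motifs of adaptors such as Tyrobp (DAP12), the signalling partner of TREM2. They also phosphorylate the ITIM motifs of inhibitory receptors, which then recruit phosphatases such as SHP-1. Csk holds these kinases in check by phosphorylating a tyrosine near their carboxyl end, which folds the kinase into a closed form, and phosphatases such as CD45 remove that phosphate. Lyn and Fgr are known best from myeloid cells, Src, Yes1 and Fyn are expressed in many tissues, and Lck is the T-cell member.

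The tail tyrosine on which Csk acts is the feature that joins the 7 genes into a circuit, so the last 60 coding bases of each gene, stop codon included, are shown here. They were read from the GRCm38 mouse transcripts of GENCODE M21, and the capitals mark the tyrosine codon. The script placed that codon by its neighbours, a glutamine codon on either side and a glutamate codon at the third place before it.
Lyn: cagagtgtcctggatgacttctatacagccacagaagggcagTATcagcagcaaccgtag
Fyn: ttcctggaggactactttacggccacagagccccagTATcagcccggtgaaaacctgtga
Fgr: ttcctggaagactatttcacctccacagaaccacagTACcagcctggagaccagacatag
Src: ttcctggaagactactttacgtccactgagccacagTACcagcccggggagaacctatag
Yes1: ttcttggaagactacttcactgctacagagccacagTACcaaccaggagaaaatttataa
Lck: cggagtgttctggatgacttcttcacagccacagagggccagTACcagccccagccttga
Csk: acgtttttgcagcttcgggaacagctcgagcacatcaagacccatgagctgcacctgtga
Each of the 6 Src-family tails held 1 such codon. It was followed by 4 further residues in Lyn and Lck and by 6 in Fyn, Fgr, Src and Yes1. The Csk tail held 0 matches and therefore has no capitals. Each tail lay within 1 exon. The Lyn tail is at chr4:3789885-3789944 on the plus strand, the Fyn tail at chr10:39563913-39563972 on the plus strand and the Csk tail at chr9:57627321-57627380 on the minus strand.

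On the genome (GRCm38), Lyn spans chr4:3678115-3813122, Fyn chr10:39368855-39565381, Fgr chr4:132974095-133001910, Src chr2:157418444-157471862, Yes1 chr5:32611171-32687057, Lck chr4:129548344-129573641 and Csk chr9:57626646-57653631. All are protein-coding. Lyn overlaps 1 annotated noncoding gene on the other strand, Fyn overlaps 2 and Yes1 overlaps 1, and as the library kit does not mark strand, reads from such partners cannot be told apart where they overlap.

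Expression is given in TPM, an abundance of transcripts that is scaled by transcript length and sums to 1000000 in each library, so it allows levels of different genes to be set side by side but keeps no record of sequencing depth. For Trem2, the targeted gene, the untreated WT cultures gave 1328, 1886 and 1538 TPM and the untreated KI cultures gave 325, 770 and 602 TPM. After IL-4 it was at 1190, 1550 and 1312 TPM in WT and at 428, 598 and 634 TPM in KI. All KI libraries were below all WT libraries. The 18 microglia markers were detected throughout, with a summed level of 26354 to 40475 TPM in WT libraries and 12363 to 27644 TPM in KI libraries, and 5 of them (Csf1r, Aif1, Itgam, C1qb and Fcrls) passed the genotype test as lower in KI. The summed levels of the mural cell and oligodendrocyte lineage markers, each led by a few genes, were higher in KI. The 5 mural cell markers summed to 144 to 422 TPM in WT and 717 to 1414 TPM in KI, with Acta2, Tagln and Cnn1 past the threshold as higher in KI, while Myh11 and Rgs5 never passed 1 TPM. The 8 oligodendrocyte lineage markers summed to 33.1 to 93.1 TPM in WT and 93.1 to 455 TPM in KI, with Olig1 past the threshold as higher in KI, while Cspg4 had a KI minus WT difference of -1.50 (95% interval -2.64 to -0.36) and did not pass (limma adjusted p = 0.287). With culture as a random block Csf1r, Itgam, Fcrls, Cnn1 and Olig1 no longer passed, at adjusted p of 0.0634 to 0.0778, and the other 4 did. The 8 astrocyte markers summed to 157 to 661 TPM in WT and to 205 to 4599 TPM in KI, and both libraries of KI culture T15 stood apart with Gfap at 3013 and 2157 TPM against 80.5 to 389 TPM in the other libraries. The 6 neuron markers summed to 6.77 to 22.2 TPM in WT and 16.2 to 63.6 TPM in KI, the 5 fibroblast markers to 6.89 to 171 and 9.97 to 66.1 TPM, and the 3 endothelial markers to 1.12 to 9.52 and 2.35 to 8.47 TPM. Of the 7 T and NK cell markers, 6 never passed 1 TPM. In such mixtures, fewer microglia and less RNA of a gene per microglial cell cannot be told apart.

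Lyn was the most abundant of the 7 transcripts in untreated cells and Fyn came level with it after IL-4. In untreated WT cultures the mean levels were 165 ± 16.1 TPM for Lyn, 41.1 ± 10.6 for Csk, 28.5 ± 2.83 for Fyn, 4.56 ± 1.81 for Yes1 and 1.93 ± 0.610 for Src (SD, n = 3), while Fgr and Lck came last, with a highest value of 1.28 and 2.20 TPM and libraries listed at 0. Among neighbours in this order, the ranges of Csk and Fyn overlapped, as did those of Fgr and Lck, and the other neighbours were separate. In untreated KI cultures the order was Lyn, Fyn, Csk, Yes1, Src, with Fgr and Lck listed at 0 in all 3 libraries. Here the ranges of Fyn and Csk overlapped, as did those of Yes1 and Src. After IL-4 Fyn and Lyn overlapped in WT, at 121 ± 10.6 and 117 ± 8.23 TPM, and in KI, at 79.7 ± 22.6 and 83.3 ± 9.30 TPM (SD, n = 3).

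**Figure D1:**
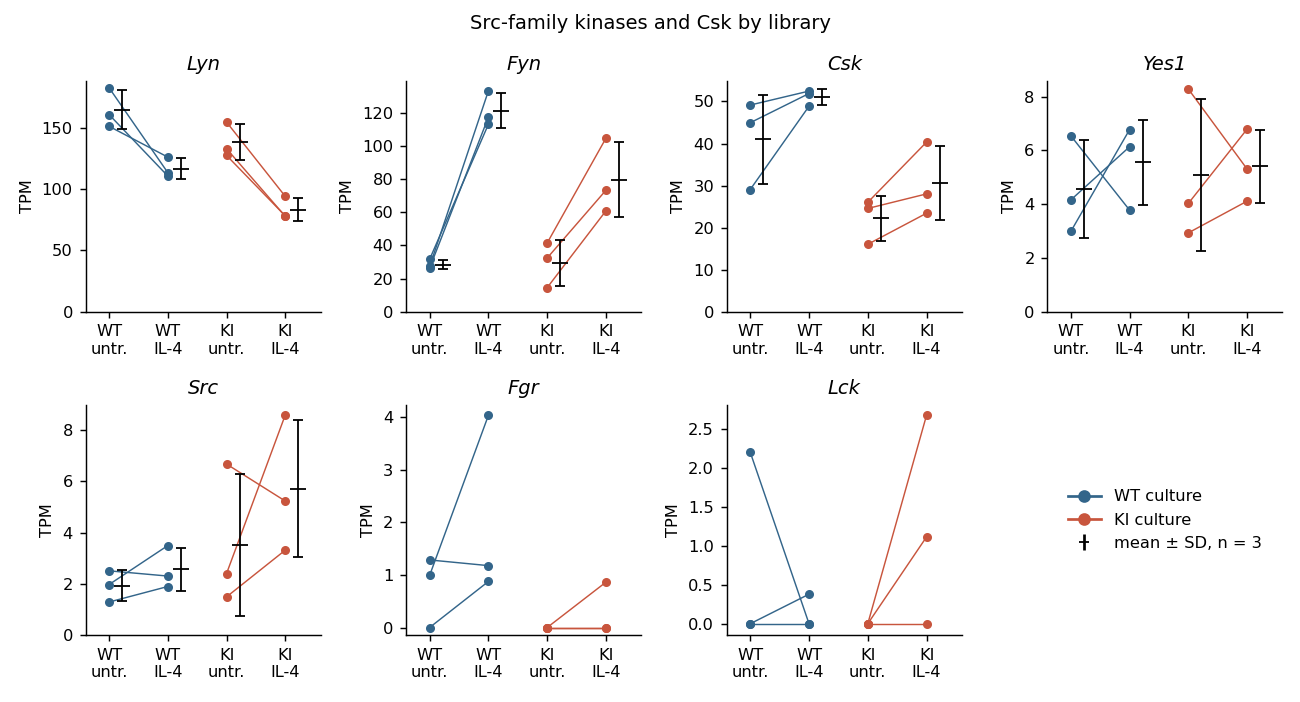
TPM of the 7 genes in each library, with 1 panel per gene, WT cultures in blue and KI cultures in red. A line joins the untreated and the IL-4-treated library of a culture, and black bars give the mean ± SD of 3 libraries for the 5 genes without values of 0. Fyn rises and Lyn falls along all 6 lines, and the KI points of Csk lie below the WT points in both treatments.

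IL-4 raised Fyn and lowered Lyn, in opposite directions within the same cultures. Without IL-4, Fyn was at 27.3, 31.7 and 26.4 TPM in WT, and with IL-4 at 133, 113 and 117 TPM in the same order of cultures. In KI cultures T15, T22 and T32 it was at 41.5, 32.4 and 14.5 TPM untreated and at 105, 73.3 and 60.9 TPM with IL-4. All 6 treated libraries were above all 6 untreated ones, and the WT mean rose 4.26-fold and the KI mean 2.70-fold.

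The IL-4 minus untreated difference of Fyn, averaged over the genotypes, was 1.77 on the log2(TPM + 1) scale (SE 0.224, 95% interval 1.29 to 2.25, limma adjusted p = 0.00259 in the moderated F-test on IL-4 with its interaction). Of the 11204 genes tested, 84 passed the threshold of 0.05 with a higher level under IL-4, which is 0.75%. Fyn was higher in all 6 cultures, a pattern that 5.73% of the genes tested shared. With culture as a block the number of genes past the threshold for IL-4, in both directions, went from 100 to 240, and Fyn remained among them. Relative to the microglia markers of each library the difference was 1.70. Over the settings tried the adjusted p of Fyn ran from 0.000113 to 0.0708, and it missed the threshold without the expression filter (0.0639) and in the KI cultures alone (0.0708).

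The levels of Lyn were 151, 183 and 161 TPM in WT cultures without IL-4 and 126, 114 and 111 TPM in the same cultures with IL-4. In KI cultures it was at 128, 133 and 155 TPM untreated and at 78.2, 77.8 and 94.1 TPM with IL-4. Every treated library was below every untreated library, the closest being 126 TPM in treated WT culture T13 and 128 TPM in untreated KI culture T15.

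The difference for Lyn was -0.61 (SE 0.112, 95% interval -0.85 to -0.37, limma adjusted p = 0.0391). Of the genes tested, 16 passed the threshold with a lower level under IL-4, which is 0.143%, and 2.51% were lower in all 6 cultures. The call on Lyn was close to the threshold. It was lost when any single culture was left out, with adjusted p of 0.0634 to 0.272, and relative to the microglia markers (0.393), without a trend in the variance (0.218), after scaling by median ratios (0.0570) and after quantile normalization (0.0534), while the difference itself stayed between -0.67 and -0.56 in those 6 leave-out fits and was -0.68, -0.61, -0.66 and -0.66 under the other 4 settings.

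With IL-4 the Csk level was above its untreated value in all 6 cultures, by 0.09 to 0.73 on the log2 scale. This pattern was shared by 5.73% of the genes tested. The averaged difference of Csk, 0.39 (SE 0.198, 95% interval -0.03 to 0.82), did not pass the test (limma adjusted p = 0.911). Src was at 0.47 (SE 0.385) and Yes1 at 0.20 (SE 0.335), and neither passed. Src was at 0.71 without culture T15 and 0.26 without T32, and Yes1 at 0.38 without T15, 0.43 without T33, 0.08 without T32 and 0.03 without T13. Src went up in 4 of 6 cultures and Yes1 also in 4 of 6, with their largest within-culture differences at 1.49 and 0.96. Thus 2 of the 5 members that could be tested passed the IL-4 test, in opposite directions.

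**Figure D2:**
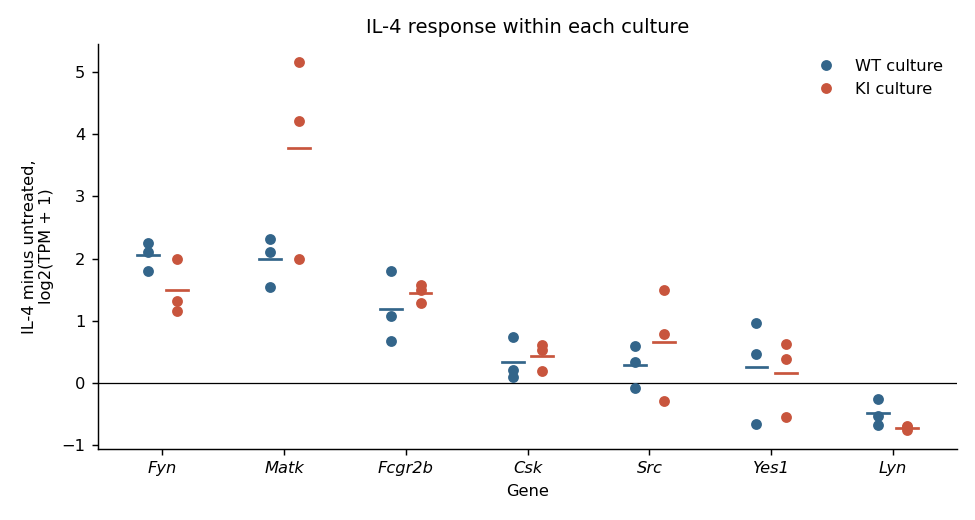
IL-4 minus untreated difference of log2(TPM + 1) within each culture for 7 genes, WT cultures in blue and KI cultures in red, with a bar at the mean of 3 cultures. Fyn, Matk and Fcgr2b lie above 0 and Lyn below 0 in all 6 cultures, whereas Src and Yes1 lie on both sides.

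Because Fyn and Lyn were read from the same library, their ratio does not depend on any single scaling factor per library. Fyn was at 0.164 to 0.181 of the Lyn level in untreated WT libraries and at 0.996 to 1.06 with IL-4. In KI libraries the ratio was 0.0939 to 0.325 untreated and 0.647 to 1.34 with IL-4. The KI ratios were spread more widely than the WT ratios, and culture T32 had the lowest ratio of its group in both treatments.

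Of the summed TPM of the 6 kinases, Lyn made up 81.5 to 82.2% in untreated WT libraries and 46.0 to 48.7% after IL-4, and in KI libraries 69.3 to 88.1% and 40.4 to 54.4%. The share of Fyn went from 13.4 to 14.8% to 48.5 to 49.4% in WT and from 8.27 to 22.5% to 35.2 to 54.1% in KI. The other 4 kinases together stayed at 2.61 to 10.4% in every library. The summed level was 185 to 222 TPM in untreated WT, 233 to 274 TPM in treated WT, 170 to 184 TPM in untreated KI and 161 to 193 TPM in treated KI. With IL-4 the make-up of these 6 kinases changed in both genotypes. Their summed level rose in WT, without overlap of the ranges, while in KI the ranges overlapped. The summed level of KI libraries was below that of WT libraries in both treatments, narrowly without IL-4 and clearly with it. These ratios and shares were formed after the values were seen and carry no test.

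**Figure D3:**
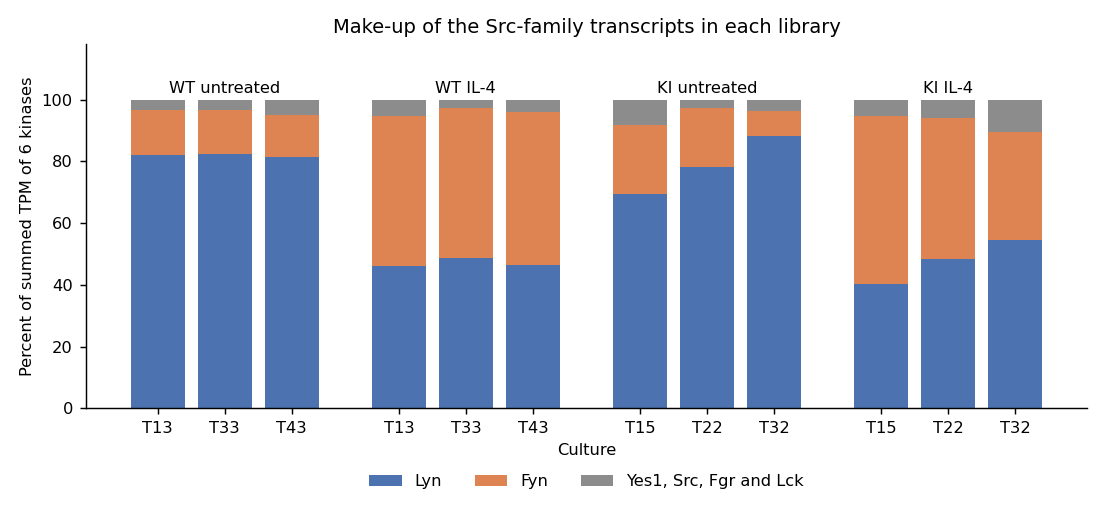
Percent of the summed TPM of the 6 Src-family kinases contributed by Lyn, Fyn and the other 4 in each library, with bars grouped by genotype and treatment and named by culture. Lyn takes most of each untreated bar, and Lyn and Fyn take similar parts of the IL-4 bars.

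Csk was lower in KI than in WT cultures in both treatments. Without IL-4, its levels were 49.2, 45.0 and 29.1 TPM in WT and 16.0, 24.6 and 26.0 TPM in KI. With IL-4 it was at 52.5, 51.9 and 48.9 TPM in WT and at 23.4, 28.0 and 40.3 TPM in KI. No KI library reached a WT library of the same treatment, a pattern that 1.23% of the genes tested shared, and the WT mean was 1.85-fold the KI mean without IL-4 and 1.67-fold with it.

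The KI minus WT difference of Csk, averaged over the treatments, was -0.80 (SE 0.198, 95% interval -1.23 to -0.38), and it did not pass the moderated F-test on genotype with its interaction (limma adjusted p = 0.108). A limma test on the averaged difference alone gave an adjusted p of 0.0345, and the other settings gave 0.0699 to 0.648. Of the genes tested, 40 passed the F-test with a lower level in KI, which is 0.357%, and 145 with a higher level, which is 1.29%. With culture as a random block these 185 genes became 77.

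The microglia markers moved with Csk. Relative to their mean in each library the KI minus WT difference of Csk was -0.24 (95% interval -0.74 to 0.25). Without culture T15, where Gfap stood apart, it was -0.62 on the TPM scale. The part of the cell mixture in the Csk difference was not tested.

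For Lyn, untreated KI and WT libraries overlapped, at 128 to 155 and 151 to 183 TPM, whereas after IL-4 all 3 KI libraries, at 77.8 to 94.1 TPM, were below all 3 WT libraries, at 111 to 126 TPM, a pattern that 5.79% of the genes tested shared. The KI minus WT difference was -0.37 (SE 0.112, limma adjusted p = 0.177), and it was 0.19 relative to the microglia markers. For Fyn, untreated KI libraries, at 14.5 to 41.5 TPM, spanned the WT range of 26.4 to 31.7 TPM, and after IL-4 all KI libraries, at 60.9 to 105 TPM, were below the WT range of 113 to 133 TPM, the pattern shared by 5.79% of the genes tested. Its KI minus WT difference was -0.35 (SE 0.224, limma adjusted p = 0.525), and 0.21 relative to the microglia markers. It was -0.61 without culture T15 and -0.05 without culture T32. Neither gene passed the genotype test, and both differences changed sign on the marker scale.

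That scale moves the whole table. The median gene tested differed by 0.13 between KI and WT on the TPM scale, by -0.08 after quantile normalization, by 0.02 after median-ratio scaling and by 0.69 relative to the microglia markers. Measured from the median gene, Csk was at -0.93, Lyn at -0.50 and Fyn at -0.48 on the TPM scale. By construction these are the same on the marker scale, which shifts all genes of a library alike, and after quantile normalization they were -0.93, -0.42 and -0.44.

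**Figure D4:**
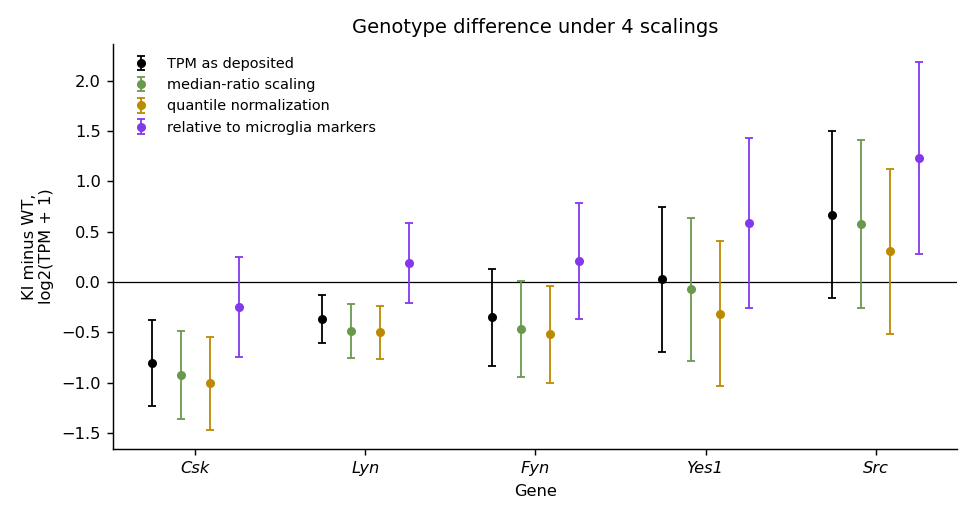
KI minus WT difference of log2(TPM + 1), averaged over the treatments, for 5 genes under 4 scalings, with 95% intervals from limma. Csk is lowest under each scaling, and the values relative to the microglia markers lie above the others for every gene.

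Src and Yes1 were low in all libraries. Src was at 1.98, 1.30 and 2.52 TPM in untreated WT, at 6.67, 1.5 and 2.41 in untreated KI, at 3.50, 1.90 and 2.31 in treated WT and at 5.23, 3.32 and 8.59 in treated KI. Its KI minus WT difference was 0.67 (SE 0.385, 95% interval -0.16 to 1.498, limma adjusted p = 0.596), and it was 0.45 without culture T15. The groups overlapped, and the 2 highest values belonged to KI cultures T15 and T32 in different treatments. Yes1 lay between 2.93 and 8.28 TPM with a KI minus WT difference of 0.03 (SE 0.335), and its highest value was again in untreated KI culture T15.

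Fgr and Lck fell below the expression filter. Fgr was at 0.991, 0 and 1.28 TPM in untreated WT, at 4.03, 0.876 and 1.18 TPM in treated WT, and was listed at 0 in 5 of 6 KI libraries, with 0.863 TPM in the remaining one. Lck was listed at 0 in 8 of 12 libraries and reached at most 2.67 TPM. At 0 to a few TPM, differences between these genes' groups could not be resolved. When all genes were tested without the filter, the KI minus WT difference of Fgr was -0.94 (SE 0.315, limma adjusted p = 0.589) and that of Lck was 0.14 (SE 0.378, adjusted p = 0.761).

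The IL-4 response was compared between genotypes with the interaction. It was -0.57 for Fyn (95% interval -1.53 to 0.40), -0.23 for Lyn (-0.71 to 0.25), 0.10 for Csk (-0.75 to 0.95), 0.38 for Src (-1.28 to 2.04) and -0.11 for Yes1 (-1.55 to 1.33), where a negative value means a lower IL-4 minus untreated difference in KI. None of the 5 passed (limma adjusted p = 1.0 for each after rounding). Over all genes tested 0 passed, which is 0.0%, and 357 had an unadjusted p under 0.05. Within the genotypes Fyn rose by 1.80 to 2.25 in the 3 WT cultures and by 1.15 to 1.99 in the 3 KI cultures, ranges that overlap.

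The genes most like each member across the 12 libraries were found by Pearson correlation of log2(TPM + 1), as a description, since the libraries share groups and cultures. Lyn was most like Hpgd (r = 0.93), which degrades prostaglandins, and Coro1a (r = 0.93), an actin regulator of leukocytes. After each group mean was subtracted the values were 0.38 and 0.70. Fyn was most like Hfe (r = 0.94, 0.67 after group means) and Cd74 (r = 0.93, 0.48 after group means), the invariant chain of MHC class II. Csk was most like Cyth4 (r = 0.95, 0.83 after group means) and Csf1r (r = 0.94, 0.77 after group means), the receptor that microglia need for survival and itself one of the microglia markers. Src was most like Slc25a44 (r = 0.93, 0.88 after group means) and Pdk2 (r = 0.89, 0.83 after group means). Yes1 was most like Gm12751 (r = 0.92, 0.98 after group means) and Slc25a30 (r = 0.85, 0.91 after group means).

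Outside the 7 genes, Blk, the B-cell member of the family, was listed at 0 in every library, and Frk, a more distant relative, averaged 1.03 TPM.

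Upstream of the kinases, 2 of 9 tested ITAM receptors and adaptors were lower in KI and 0 higher, with a median difference of -0.68 against 0.13 for all genes tested and -0.65 for the 18 microglia markers. Over all genes tested 0.357% were lower in KI. The medians of the lists that follow were -0.24 for the downstream kinases, -0.28 for the genes listed around the tail tyrosine, -0.34 for the adaptors and effectors and -0.44 for the inhibitory receptors. The part of the marker shift in these list differences was not tested. The genes past the threshold were Trem2 (-1.43, SE 0.190, limma adjusted p = 0.00763) and Itgam (-0.85, SE 0.163, adjusted p = 0.0408), the alpha chain of complement receptor CR3 and also one of the microglia markers. Trem2 is the targeted gene, whose transcript this allele itself lowers, so its call says nothing further about the list. With culture as a random block Trem2 passed (adjusted p = 0.0116) and Itgam did not (0.0766). Tyrobp, the most abundant of the list, was at -0.64 (SE 0.202, adjusted p = 0.211). With IL-4, 1 of 9 was higher and 0 lower, beside 0.75% and 0.143% of all genes tested. That gene was Clec7a, the beta-glucan receptor dectin-1, higher by 1.97 (SE 0.217, limma adjusted p = 0.000904). With culture as a block, under which more of all genes tested passed, Fcgr3 (0.79, adjusted p = 0.000744) and Itgb2 (0.56, adjusted p = 0.00774) passed as well.

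Among 14 tested phosphatases, adaptors and kinases listed around the tail tyrosine, 1 was lower in KI and 1 higher with IL-4, beside 0.357% and 0.75% of all genes tested. Not all genes of this list act on that tyrosine directly. Ptpn6, which encodes SHP-1, was lower in KI by -0.81 (SE 0.158, limma adjusted p = 0.0407), a call that was lost with culture as a random block (adjusted p = 0.0819). Matk, the Csk-homologous kinase that also phosphorylates the Src-family tail, had 4.56, 9.96 and 4.41 TPM in WT cultures without IL-4 and 26.7, 30.7 and 22.3 TPM with IL-4. In KI cultures it was at 2.47, 0 and 0 TPM untreated and at 12.7, 17.5 and 34.7 TPM with IL-4. Its IL-4 difference was 2.89 (SE 0.386, limma adjusted p = 0.00287), and it was higher in all 6 cultures, a pattern that 5.73% of the genes tested shared. The 2 kinases of the tail tyrosine thus differed in their IL-4 response as tested one by one, Matk passing and Csk not, but the difference between them was not tested. With culture as a block Ptpn1, the phosphatase PTP1B, also passed with IL-4 (0.61, adjusted p = 0.0415).

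Of 8 tested inhibitory receptors, 1 was lower in KI and 2 were higher with IL-4, beside the same 0.357% and 0.75% of all genes tested. Cd72, an ITIM receptor that recruits SHP-1, was lower in KI by -1.45 (SE 0.105, limma adjusted p = 0.000100) and higher with IL-4 by 0.60 (SE 0.105, adjusted p = 0.0340). Fcgr2b, the inhibitory Fc receptor, was higher with IL-4 by 1.32 (SE 0.159, adjusted p = 0.00177). The list's median IL-4 difference was 0.31 against 0.04 for all genes tested.

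Downstream, 0 of 9 tested kinases passed for genotype or IL-4. Of all genes tested, 0.357% were lower and 1.29% higher in KI, and 0.75% were higher and 0.143% lower with IL-4. Ptk2b, the most abundant of these kinases at a mean of 72.3 TPM, was at -0.43 for genotype (SE 0.154). Of 22 tested adaptors and effectors, 1 was lower in KI and 1 higher, beside the same 0.357% and 1.29% of all genes tested. Pik3ap1, which links receptors to phosphoinositide 3-kinase, was lower in KI (-1.08, SE 0.177, limma adjusted p = 0.0203). Cttn, the actin-binding Src substrate cortactin, was higher in KI (2.06, SE 0.420, adjusted p = 0.0481), a call that was lost with culture as a random block (adjusted p = 0.0758). Cttn was highest in KI culture T15, at 113 and 79.7 TPM, against 2.87 to 24.3 TPM in WT libraries, and the part of the astrocyte and mural marker levels in this was not tested. No gene of these 22 passed for IL-4, beside the same 0.75% higher and 0.143% lower of all genes tested. With culture as a block 1 did, Lat2 (0.98, adjusted p = 0.00360). For the interaction 0 genes of any list passed.

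**Figure D5:**
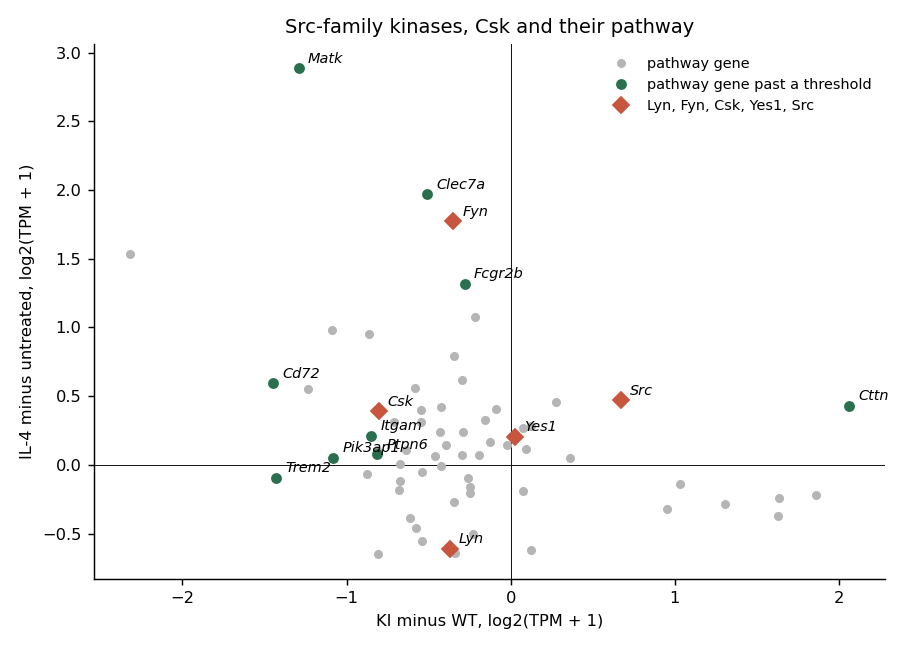
KI minus WT difference (x axis) against IL-4 minus untreated difference (y axis) on the log2(TPM + 1) scale for the tested genes of the 5 pathway lists (grey, or green where past a genotype or IL-4 threshold) and 5 members (red diamonds). Fyn lies high at 1.77 with Matk and Clec7a above it, and Lyn lies at -0.61.

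Promoters were searched for motifs of the STAT family, since IL-4 signals through STAT6, and of PU.1, the myeloid lineage factor. RefSeq promoters (GRCm38.p6, 300 bases from upstream to just past the start) were at hand for Src, Lck, Fgr, Yes1, Csk and Fyn, 8 entries in all. The motif TTCNNNNGAA, present in 7.0% of 32851 promoters on either strand, and TTCNNNGAA, present in 8.3%, had 0 matches in these 8 windows, the Fyn window included. The PU.1 core GAGGAA, present in 28.3% of promoters, was found in the Src and Fgr windows, in 1 of 2 Lck windows and in both Csk windows, and not in those of Fyn or Yes1. A match or its absence describes these letters in these windows alone.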

How the data were processed

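Poly(A)-primed SMART-Seq v4 libraries, 12 from 6 microglial cultures, were sequenced. Per the labels and the submitters' processing notes, the authors trimmed reads with Trim Galore and quantified them with Salmon on GRCm38, summed to genes with tximport (versions not given in the sources used here), and deposited TPM per gene. These values do not keep the depth of each library, and no counting error is given. GENCODE M21 named 48419 of the 48623 Ensembl identifiers. From these, log2(TPM + 1) was computed, and the 11204 genes whose mean of these log2 values passed 1.5 were fitted over the 4 groups with limma 3.58.1 (R 4.3.3), with a variance trend and Benjamini-Hochberg adjustment at 0.05. Moderated F-tests on 2 coefficients took the place of the study's likelihood-ratio test on counts. The script was tested on simulated data.

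The 2 libraries of a culture share a code in their titles, such as T13, and were therefore taken to come from the same culture. Their deviations from the group means correlated at 0.08 to 0.38, but those of T22 correlated more with another culture (0.19) than with each other (0.12). Culture as a block was an alternative, as were another pseudocount, filters, scalings, single contrasts and leaving out each culture. The members and lists were chosen with earlier results of these data known. Named genes were the 7 members, the 2 genes most correlated with each tested member, Trem2, leading markers, and list genes past a threshold or else the most abundant. Each group holds 3 cultures, and the main fit treats all libraries as independent. Its p-values measure the spread of libraries around their group means, with variances moderated over all genes. For genotype the 2 libraries of a culture thus count as separate, which the random block allows for. An item of the lists is not reported here.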

Additional observations from a re-analysis of the deposited data

How the results depend on the processing

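For genotype, 0 of 5 tested members passed under each setting tried, except that 1, Csk, passed in the test of the averaged difference alone. For IL-4, 2 members passed, and the number was 1 under no filter (Lyn kept its call at adjusted p = 0.0485, Fyn lost it at 0.0639), quantile normalization, median-ratio scaling, values relative to the microglia markers, no variance trend and the WT cultures alone, where Fyn passed, and 0 in the KI cultures alone. With 1 culture left out the number was 1 in each fit, Fyn each time. For the interaction it was 0 throughout. Culture as a block changed no call on a member. The following non-significant differences changed sign. For genotype they were Lyn (0.19) and Fyn (0.21) relative to the microglia markers, and Yes1 under quantile normalization (-0.32), median-ratio scaling (-0.071), in IL-4-treated cultures alone (-0.026) and with a culture left out (-0.15 to 0.24). For the interaction they were Csk relative to the markers (-0.11) and, with a culture left out, Csk (-0.027 to 0.29), Src (-0.037 to 0.86) and Yes1 (-0.57 to 0.25). Levels in untreated WT moved by less than 1 SD under both other scalings. The causes were not tested. TPM keeps no depth, so low members such as Fgr and Lck have no counting error here.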

Other observations

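Lyn relative to Csk, both read from the same library, stood at 3.08 to 5.54 in untreated WT libraries and at 5.42 to 7.96 in untreated KI libraries, and at 2.19 to 2.41 and 2.33 to 3.34 after IL-4. The ratio was lower with IL-4 in each of the 6 cultures. These values were formed after the data were seen and carry no test.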
